A study of Mus musculus with 8 samples.

Results

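The sites described here are stretches of open chromatin that were found in both dividing progenitor populations of the growing mouse hair follicle and in neither stem cell population of the resting follicle. They were obtained by merging peaks that overlapped by 1 bp or more across 4 ATAC-seq peak lists and keeping each merged site that held a peak of basal and of suprabasal transient amplifying cells (TACs) and no peak of bulge or hair germ cells. Of 114956 merged sites outside the mitochondrial and Y chromosomes, 12377 met this rule, 10.8% (95% Wilson interval 10.6 to 10.9). They are called both-anagen-only sites. They were chosen by the presence of called peaks in each list, so that presence is a description and no finding. ATAC-seq inserts sequencing adapters into accessible DNA with a transposase, so a peak marks a place where fragments pile up.

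The 4 populations were sorted from back skin of mice of mixed sex, with 2 samples each. Bulge stem cells (GFP+, CD34+, integrin α6+, integrin β1+) and hair germ cells (GFP+, CD34-, integrin α6+, integrin β1+) came from Lgr5-eGFP-ires-CreER mice at postnatal day 55, in the second telogen, the resting phase. Basal TACs (GFP-, CD34-, high integrin β1, P-cadherin+, SCA1-) came from the same strain at postnatal day 30, and suprabasal TACs (low GFP, integrin α6-, CD34-) from K14-H2BGFP mice at postnatal day 30. Both TAC populations belong to anagen, the growth phase. In the first strain the reporter is read from the Lgr5 locus, and in the second a histone-GFP fusion is driven by a keratin 14 promoter. Growth phase and age therefore changed together, and within anagen the suprabasal layer and the strain changed together; the members of each pair cannot be told apart here. The authors deposited 1 peak list per population, called on both samples pooled. No spread between replicates exists, so no p-value is given, and intervals cover counting error only.

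In anagen the lower follicle holds a matrix of rapidly dividing cells around the dermal papilla. Matrix cells respond to WNT and BMP signals and give rise to the hair shaft and to the inner root sheath, the tube of keratinised layers that guides the shaft. LEF1, MSX, HOXC13, CUX1 and GATA3 are transcription factors known from these steps, and stem cells of the bulge lie higher in the follicle and stay largely quiet.

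Sequences are shown first for the places where a both-anagen-only site lay across a gene start, since there the open DNA can be read beside the gene it belongs to. Each is the 250 bases before the start, 5′ to 3′ on the gene's strand, taken from RefSeq promoter windows on GRCm38.p6, of which mm10 is the browser name. Capitals mark exact matches, on either strand, to 6 short motifs: CTTTGA for TCF/LEF, AGATAA for GATA factors, TTTATNG for HOX, TAATTG for MSX/DLX homeobox proteins, TGANTCA for AP-1 and GGGCGG for KLF/SP. The HOX letters can overlap those of a TATA box, the promoter element TATAAA. Krt28, Krt71, Tgm3 and Padi3 are inner root sheath genes, and Fgf5 encodes a growth factor known to bring anagen to its end. Pla2g2e was the start that ranked highest when the lower of its basal and suprabasal coverage ranks was taken.
Krt28, chr11:99374904-99375153, minus strand: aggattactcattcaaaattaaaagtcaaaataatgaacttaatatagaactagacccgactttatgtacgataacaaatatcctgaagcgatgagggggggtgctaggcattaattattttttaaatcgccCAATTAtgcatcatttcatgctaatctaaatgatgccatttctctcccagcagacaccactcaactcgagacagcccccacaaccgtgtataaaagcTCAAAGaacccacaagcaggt
Krt71, chr15:101743098-101743347, minus strand: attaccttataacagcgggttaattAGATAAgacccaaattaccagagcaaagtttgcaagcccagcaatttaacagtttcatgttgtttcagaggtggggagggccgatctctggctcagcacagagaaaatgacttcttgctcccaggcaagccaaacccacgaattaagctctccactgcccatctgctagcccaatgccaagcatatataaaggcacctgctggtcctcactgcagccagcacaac
Tgm3, chr2:130012090-130012339, plus strand: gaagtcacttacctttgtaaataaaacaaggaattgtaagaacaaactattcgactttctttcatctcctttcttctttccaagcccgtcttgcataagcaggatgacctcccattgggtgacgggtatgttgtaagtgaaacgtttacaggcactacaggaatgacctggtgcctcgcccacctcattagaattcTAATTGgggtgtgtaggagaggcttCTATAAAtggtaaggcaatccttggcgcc
Padi3, chr4:140810649-140810898, minus strand: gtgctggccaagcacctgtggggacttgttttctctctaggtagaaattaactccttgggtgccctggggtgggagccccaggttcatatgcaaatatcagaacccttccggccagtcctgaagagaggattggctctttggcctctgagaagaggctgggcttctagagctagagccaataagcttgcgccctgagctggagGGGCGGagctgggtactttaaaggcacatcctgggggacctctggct
Fgf5, chr5:98253934-98254183, plus strand: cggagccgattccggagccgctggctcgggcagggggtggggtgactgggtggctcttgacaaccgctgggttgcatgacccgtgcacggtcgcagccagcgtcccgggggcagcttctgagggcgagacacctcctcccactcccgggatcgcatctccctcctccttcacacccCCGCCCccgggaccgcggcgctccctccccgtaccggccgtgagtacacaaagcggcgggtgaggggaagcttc
Pla2g2e, chr4:138877692-138877941, plus strand: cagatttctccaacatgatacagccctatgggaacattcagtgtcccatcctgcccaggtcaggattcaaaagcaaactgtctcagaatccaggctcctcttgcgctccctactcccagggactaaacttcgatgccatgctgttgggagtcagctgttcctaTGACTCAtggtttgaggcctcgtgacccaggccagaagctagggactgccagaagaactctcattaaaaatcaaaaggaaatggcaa
In this stretch Krt28 held 1 TCF/LEF and 1 MSX/DLX match, Krt71 held 1 GATA match, and Tgm3 held 1 MSX/DLX and 1 HOX match. Padi3 and Fgf5 held 1 KLF/SP match each, and Pla2g2e held 1 AP-1 match. These are letters in the reference and say nothing of which factor was bound.

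The libraries behind the sites differed in depth. Suprabasal TACs had 47852893 fragments, basal TACs 30824845, bulge cells 24065469 and hair germ cells only 11053351, and the lists held between 56548 and 75652 peaks. A site open to the same degree is less likely to be called in the hair germ than elsewhere. When both anagen coverages of a site were scaled by total fragments and the lower one taken, 6733 sites (54.4%) would have reached the 10th percentile of summit coverage among bulge peaks, and 5062 (40.9%) would have reached it in both telogen libraries. Where a site fell short of that percentile in a telogen library, its missing peak there cannot be told apart from a lack of depth. The percentile is no strict limit, since some called peaks lie below it. Only 413 sites (3.34%) would have reached the median hair germ peak.

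Most both-anagen-only sites were a single pair of matching peaks. In 12142 of them (98.1%) there was exactly 1 basal and 1 suprabasal peak. The highest summits of both lists lay a median of 46 bp apart, 74.2% lay within 100 bp, and 97.6% of sites had peaks that overlapped by at least 50% of the shorter one. Sites had a median length of 777 bp (quartiles 560 and 1064, range 256 to 3024) and covered 10.6 Mb. Medians were shorter for sites of the basal list only (454 bp) and of the suprabasal list only (370 bp). Sites of both telogen lists only had a median of 690 bp, and sites of all 4 lists 1283.5 bp. A site spans all its merged peaks, so its length tends to grow with the number of lists that hold it. Together, 16.5% of all basal TAC peaks and 17.4% of all suprabasal TAC peaks lay in both-anagen-only sites.

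In strength they stood between peaks found in 1 population and peaks found in all. Peaks are called on coverage and the classes count the lists with a call, so the rule itself favours this order. Fragment coverage at the summit is the authors' score and is used here only to rank peaks within their own list. Basal TAC peaks of both-anagen-only sites had a median percentile of 35.8, against 27.8 for peaks of the basal list only and 73.2 for peaks of all 4 lists. In the suprabasal list the same medians were 43.9, 26.6 and 70.9. Their median fold enrichment over the local background, also the authors' score, was 5.71 in basal and 4.70 in suprabasal TACs.

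**Figure D1:**
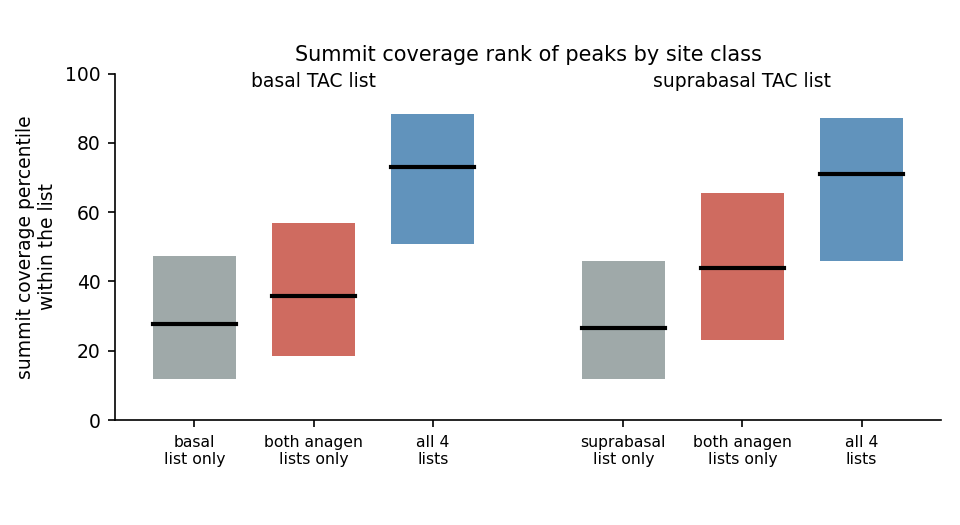
Summit coverage percentile within the basal TAC list (left) and within the suprabasal TAC list (right) for 3 classes of peak; bars span the quartiles and black lines are medians. Peaks of both-anagen-only sites have medians of 35.8 and 43.9 and lie between peaks of 1 list only and peaks of all 4 lists. Classing by the number of lists with a call favours this order.

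The nearest telogen peak lay at a median distance of 8.31 kb. More than 10 kb from any telogen peak were 44.2% of both-anagen-only sites, and 361 were more than 100 kb away. Close to the rule's limit, 23 members had a telogen peak within 100 bp without touching it, and 29 sites were left out because a telogen peak overlapped an anagen peak by 1 to 100 bp. The median basal percentile, ranked over all sites of both anagen lists, was 29.9 in the first set and 16 in the second, beside 24.9 over all both-anagen-only sites. A telogen peak lay within 1 kb of 771 members (6.23%).

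Both-anagen-only sites lay mostly away from gene starts. Within 1 kb of either end of a protein-coding gene there were 822 of them, 6.64% (6.22 to 7.09), against 37.1% of sites of all 4 lists and 14.0% of all sites. The like classes had lower shares: 4.12% for the basal list only, 5.49% for the suprabasal list only and 3.60% for sites of both telogen lists only. Inside a gene span lay 57.3% (56.5 to 58.2), close to the 58.0% of all sites, above the 47.4% of both-telogen-only sites and below the 69.8% of sites of all 4 lists. The RefSeq table used has no exons, so exons and introns were not separated. Where a RefSeq start could be used, the median distance from site to start was 43.4 kb, against 38.3 kb over all sites and 16.5 kb for sites of all 4 lists. No protein-coding gene lay within 100 kb of 1236 sites (9.99%). On the chromosomes their share of all sites ran from 9.06% on X to 11.8% on chromosome 16.

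Within anagen the both-anagen-only sites leaned towards the suprabasal population. Over the 48256 sites held by both anagen lists, with or without telogen peaks, each site was ranked by its highest summit coverage in each list, and a difference of 25 percentile points or more was called a lean. Among both-anagen-only sites 2881 ranked higher in suprabasal TACs, 23.3% (22.5 to 24.0), where 12.5% of all ranked sites did. In the other direction 1580 ranked higher in basal TACs, 12.8% (12.2 to 13.4), where 13.5% of all ranked sites did. Sites of all 4 lists showed the opposite order, with 7.72% higher in suprabasal and 13.4% higher in basal TACs. Both rankings hold the same 48256 sites, so the differences cancel over them by construction. A suprabasal lean of both-anagen-only sites is thus offset among the other ranked sites. The median difference, suprabasal minus basal, was 5.31 points for both-anagen-only sites and -0.02 points for sites of all 4 lists. The lean towards suprabasal TACs was smaller near gene ends (17.6%, 15.2 to 20.4) than farther out (23.7%, 22.9 to 24.5). Among the 5062 sites that passed the depth scaling, 32.9% leaned suprabasal and 5.37% basal; by its construction this scaling asks for a higher coverage in the deeper suprabasal library than in the basal one.

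**Figure D2:**
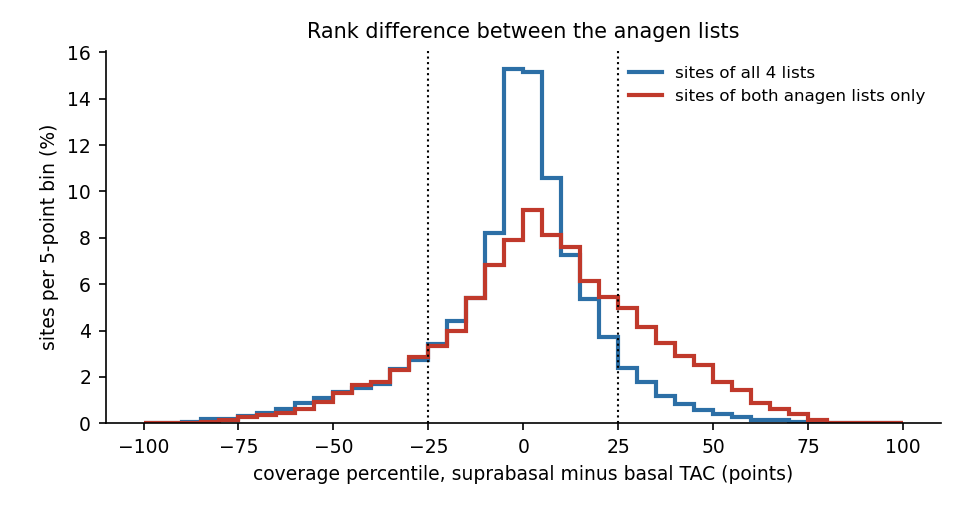
Share of sites (%) per bin of the difference in coverage percentile, suprabasal minus basal TAC, for both-anagen-only sites and for sites of all 4 lists; dotted lines mark differences of 25 points. The curve of both-anagen-only sites has a heavier right side, with 23.3% at or beyond 25 points against 7.72% of sites of all 4 lists. Over all ranked sites the differences cancel out by construction.

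Sites were assigned to the nearest protein-coding gene within 100 kb, and 11141 both-anagen-only sites found one. They were spread over 5875 of the 16940 genes with any site (34.7%), and 3467 of these genes had only 1. At 377 genes there were 5 or more. At genes with 8 or more sites, the median share of sites that were both-anagen-only was 10%. The 20 genes with the most were long, with a median span of 552 kb; over every gene that had a site the median was 22.4 kb.

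Robo1, a guidance receptor for SLIT ligands, had the most, with 19 of its 58 sites. Foxp1, a forkhead transcription factor, had 16 of 92 and Tenm4, a teneurin adhesion receptor, had 16 of 101. Pard3, a cell polarity protein, had 15 of 83 and Lrmda had 14 of 81. Cux1, a homeobox factor of the hair matrix and inner root sheath, had 13 of 58, none of its 58 sites belonged to both telogen lists only, and 4 of its 13 leaned suprabasal. Sox5 had 13 of 66, Tenm2 13 of 97, Sipa1l1 13 of 54, Cacna2d3 13 of 55, Cdkal1 13 of 66 and Arid1b 13 of 68. Dock1 and Mob3b each had 12 of 30, the highest share among these 20 genes. Kirrel3 and Npas3 had 12 of 39 each, Fhod3 12 of 60, 1700025G04Rik 11 of 32, Vti1a 11 of 34 and Bbs9 11 of 37.

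The genes with the highest share were shorter, with a median span of 46.6 kb over the first 10. Where gene spans overlapped, a site went to the shortest gene, so an open site at a gene's start can be counted at a neighbour. Cpsf2, a subunit of the mRNA cleavage and polyadenylation complex, had 6 of 8 sites, and no site assigned to it was in a telogen list. Galnt16, a glycosyltransferase of the mucin type, had 6 of 10 and no telogen site. Klhl6 had 7 of 12, of which 3 leaned basal. Mgat5b, a glycosyltransferase, and Reep1, a protein that shapes the endoplasmic reticulum, had 8 of 14 each. Acsl4, Ankrd60 and Padi1 had 5 of 9 each, and Kcnk12 and Nipa1 had 6 of 11 each. Padi1 is a peptidyl arginine deiminase, a family that citrullinates structural proteins of the inner root sheath and epidermis; it lies next to Padi3 on chromosome 4.

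**Figure D3:**
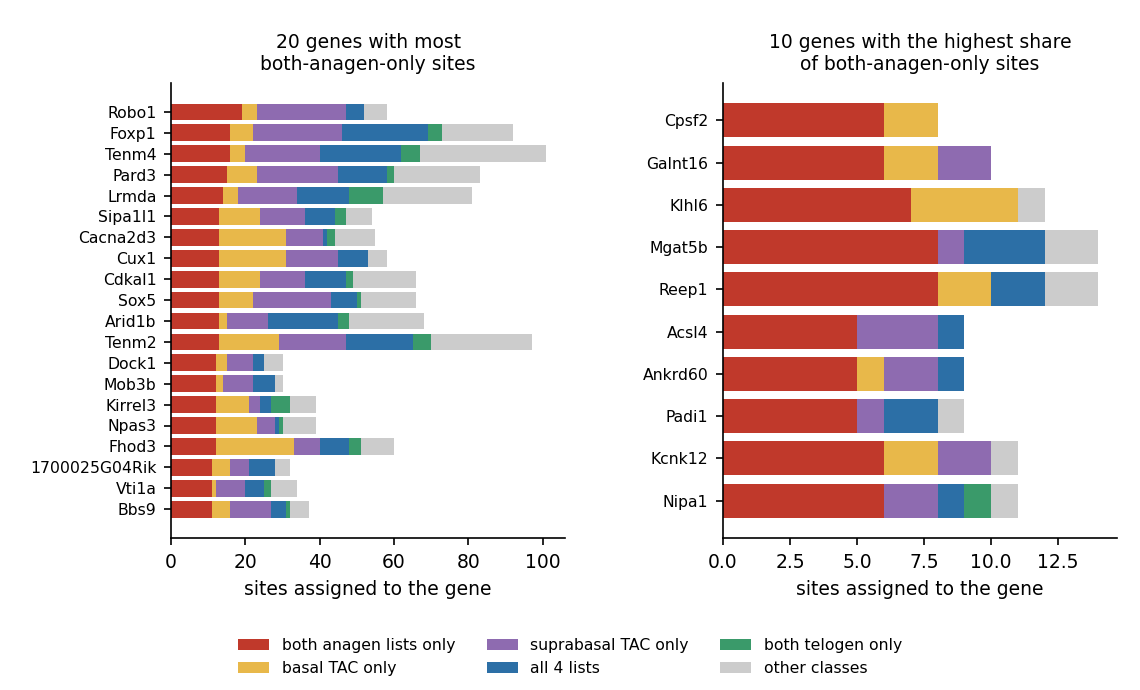
Number of sites assigned to each gene, coloured by the lists that held a peak there, for the 20 genes with most both-anagen-only sites (left) and the 10 genes with the highest share among genes with 8 or more sites (right). Robo1 has 19 of 58, and Cpsf2 has 6 of 8 with no telogen colour in its bar.

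Of the 5875 genes with a both-anagen-only site, 1953 (33.2%) also had a site of both telogen lists only, as did 3717 (21.9%) of all 16940 genes with a site. Genes with a both-anagen-only site were longer, with a median span of 44.5 kb, and the part of length in this difference was not tested. There were 570 genes with a both-anagen-only site and no telogen site assigned to them. Of those 570 genes, 181 had 3 or more sites. On the 23 gene lists used below, 171 of 340 genes had a both-anagen-only site, and 11 of these had no telogen site: Fgf5, Padi3, Krt28, Krt35, Gprc5d, Pparg, Cd3e, Cd74, Chga, Csf1r and Lyz2.

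Over all sites assigned to a gene, 10.8% were both-anagen-only, and this is the level against which each gene list is set. Sites of both telogen lists only made up 6.26%. By gene, 34.7% of genes with a site had a both-anagen-only one, and a gene with few sites has less room for one. Lists share genes, so they are not independent of each other.

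Inner root sheath genes had the highest share of any hair follicle list. Of their 91 sites 21 were both-anagen-only, 23.1% (14.9 to 33.1), and 3 belonged to both telogen lists only. They were found at 9 of 13 genes, beside 34.7% of all genes with a site. Krt27, Krt72, Krt73 and Dsc2 had none. Of the 21 sites 10 leaned suprabasal and 1 leaned basal, beside 23.3% and 12.8% over all both-anagen-only sites.

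Tgm3, a transglutaminase that cross-links sheath and cuticle proteins, had 6 of 18. At the site across its start (chr2:130011859-130013171) summit coverage was 89 fragments in basal and 237 in suprabasal TACs, a rank difference of 33.2 points. A second site 2.70 kb before the start had 35 and 207 fragments and differed by 68.8 points. Both were thus open in basal TACs and ranked higher in suprabasal TACs, and 4 of the 6 sites leaned that way.

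Tchh encodes trichohyalin, the main granule protein of the inner root sheath. It had 4 of 6, all before its start at distances from 6.11 to 20.9 kb. The nearest of them had 39 fragments in basal and 110 in suprabasal TACs, a difference of 42.9 points, and the other 3 did not lean either way.

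Krt71 and Krt28 are keratins of the inner root sheath. The site across the start of Krt71 (chr15:101742608-101743677) had 28 and 70 fragments and a difference of 37.0 points. A second site, 18.2 kb after the start and past the end of the gene, had 35 and 72. The site across the start of Krt28 (chr11:99374476-99375723) had 72 and 141 fragments and a difference of 26.9 points; neither of its 2 other sites was in a telogen list.

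Padi3, which citrullinates trichohyalin, had 3 of 8 and no telogen site. Its start site (chr4:140810371-140810906) had 196 fragments in basal and 125 in suprabasal TACs, at percentiles 89.8 and 73.9, with a fold enrichment of only 4.61 and 2.56. None of its 3 sites leaned. Gata3, a transcription factor needed for the inner root sheath, had 2 of 22; one of them, 56.5 kb from the start, had 17 fragments in basal and 122 in suprabasal TACs.

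**Figure D4:**
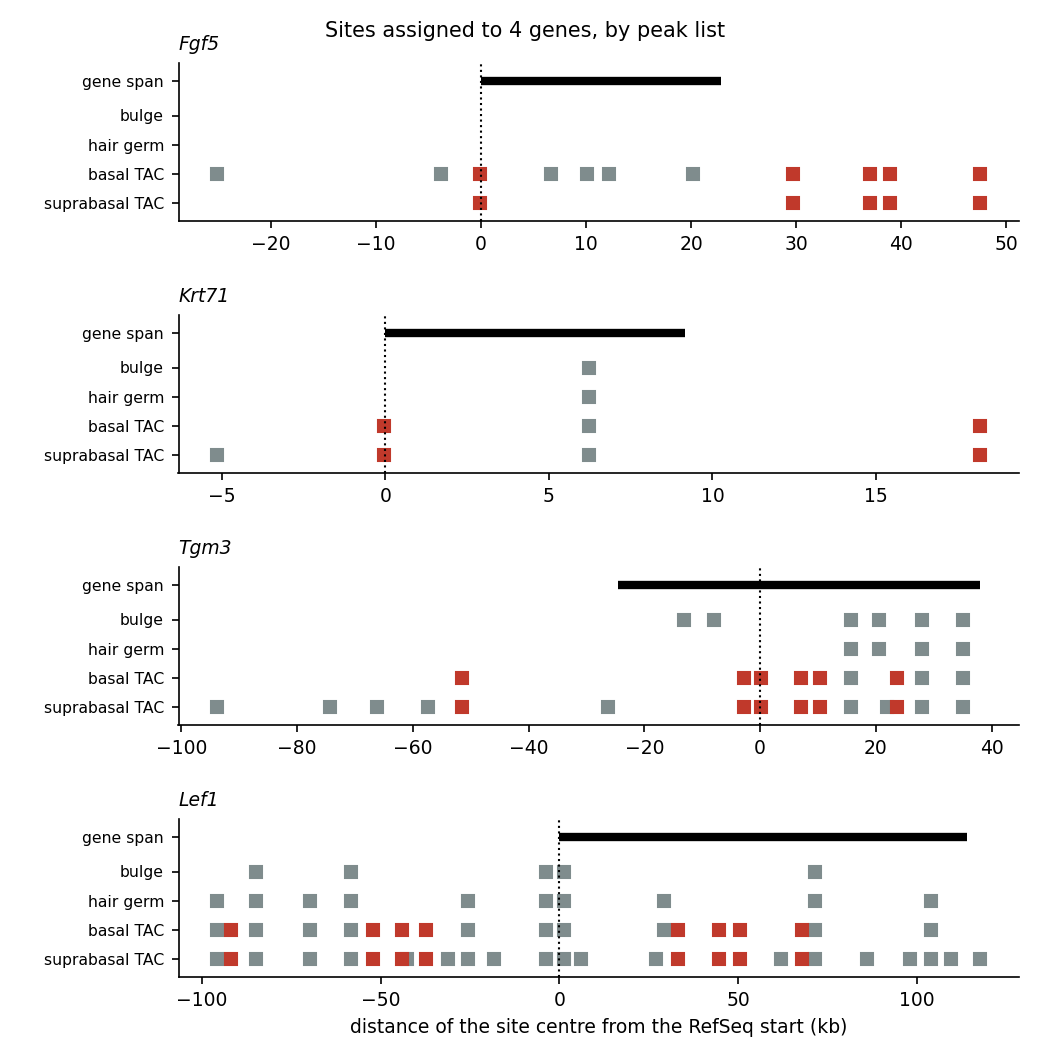
Sites assigned to Fgf5, Krt71, Tgm3 and Lef1 by distance of the site centre from the RefSeq start (kb, in the direction of transcription), with 1 row for each peak list that holds them; red squares are both-anagen-only sites, grey squares all other sites, and the black bar is the gene span. Fgf5 has no square in the telogen rows, and the red sites of Lef1 lie between sites that telogen cells also have.

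Transcription factors of the matrix came next, with 56 of 325 sites, 17.2% (13.3 to 21.8). These lay at 12 of 16 genes, beside 34.7% of all genes with a site. Dlx3, Ovol1, Satb1 and Sox21 had none. Of the 56 sites 25 leaned suprabasal and 2 basal, beside 23.3% and 12.8% over all both-anagen-only sites.

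Lef1, the nuclear partner of β-catenin in WNT signalling, had 8 of 28 and no site of both telogen lists only. Its 8 sites lay from 91.9 kb before to 68.0 kb after the start, all between 2.35 and 19.7 kb from the nearest telogen peak, and 6 leaned suprabasal. The strongest of them, inside the gene 68.0 kb from the start, had 77 fragments in basal and 206 in suprabasal TACs. The most unequal, 50.6 kb from the start, had 19 and 120, a difference of 68.8 points.

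Hoxc13, a homeobox factor needed for hair keratin expression, had 8 of 20. The 3 that leaned suprabasal had 42 and 192, 25 and 93, and 22 and 120 fragments in basal and suprabasal TACs, and no Hoxc13 site leaned basal. One of the 8 overlapped the gene span, with 69 and 79 fragments. The Hoxc genes lie close together, so the nearest gene is less certain here than elsewhere.

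Msx1, a homeobox factor downstream of BMP, had 5 of 16, between 38.2 and 93.7 kb before its start. Of these 4 leaned suprabasal, the most unequal with 38 fragments in basal and 199 in suprabasal TACs, a difference of 64.5 points. Trps1, a GATA-type repressor known from hair disorders, had 7 of 39 with 4 suprabasal leaning, and Runx1 had 5 of 41 with 1 basal leaning. Runx1 also had 7 sites of both telogen lists only.

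Hair germ genes, a list that shares Lef1, Cux1 and Runx1 with the matrix, had 41 of 265, 15.5% (11.3 to 20.4). Most of the 41 were at these shared genes, with 13 at Cux1, 8 at Lef1 and 5 at Runx1. Without Cux1 the share was 13.5%. Ptch1, the hedgehog receptor, had 5 of 28 and Shh, its ligand, 3 of 9. Hair shaft genes were near the level of all genes, with 8 of 83, 9.64% (4.25 to 18.1). By gene, 5 of 16 had one and 11 had none, beside 34.7% with one over all genes with a site. The exception in rank was Krt35, a hair keratin: of all both-anagen-only sites the one at its gene end had the largest suprabasal lean, with 17 fragments in basal and 210 in suprabasal TACs, a difference of 89 points. Outer root sheath genes had 16 of 143, 11.2% (6.53 to 17.5), and 8 of the 16 were at Trp63, a master regulator of stratified epithelium with 42 sites.

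Krt14, the keratin whose promoter drives the reporter of the suprabasal TAC mice, had 2 of 7. The site across its start had 61 fragments in basal and 77 in suprabasal TACs, and a telogen peak lay only 0.124 kb away. If fragments of the transgene's promoter align here, they cannot be told apart from the gene's own in the suprabasal library. Whether they do was not tested.

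Genes of the bulge stem cell had the lowest share, 26 of 514 sites, 5.06% (3.33 to 7.32), against 61 sites (11.9%, 9.20 to 15.0) of both telogen lists only. By gene, 13 of the 20 had a both-anagen-only site, beside 34.7% of all genes with a site. The 7 without included Lgr5 with 27 sites and Cd34 with 11. Tcf7l2, a TCF factor, had 6 of 58 and Nfib, a factor of quiescent stem cells, 5 of 94. The Lgr5 reporter and CD34 were used in sorting telogen cells and basal TACs, and CD34 also in sorting suprabasal TACs. These 20 genes had 379 sites with a bulge peak, 289 with a hair germ peak, 292 with a basal TAC peak and 226 with a suprabasal TAC peak.

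**Figure D5:**
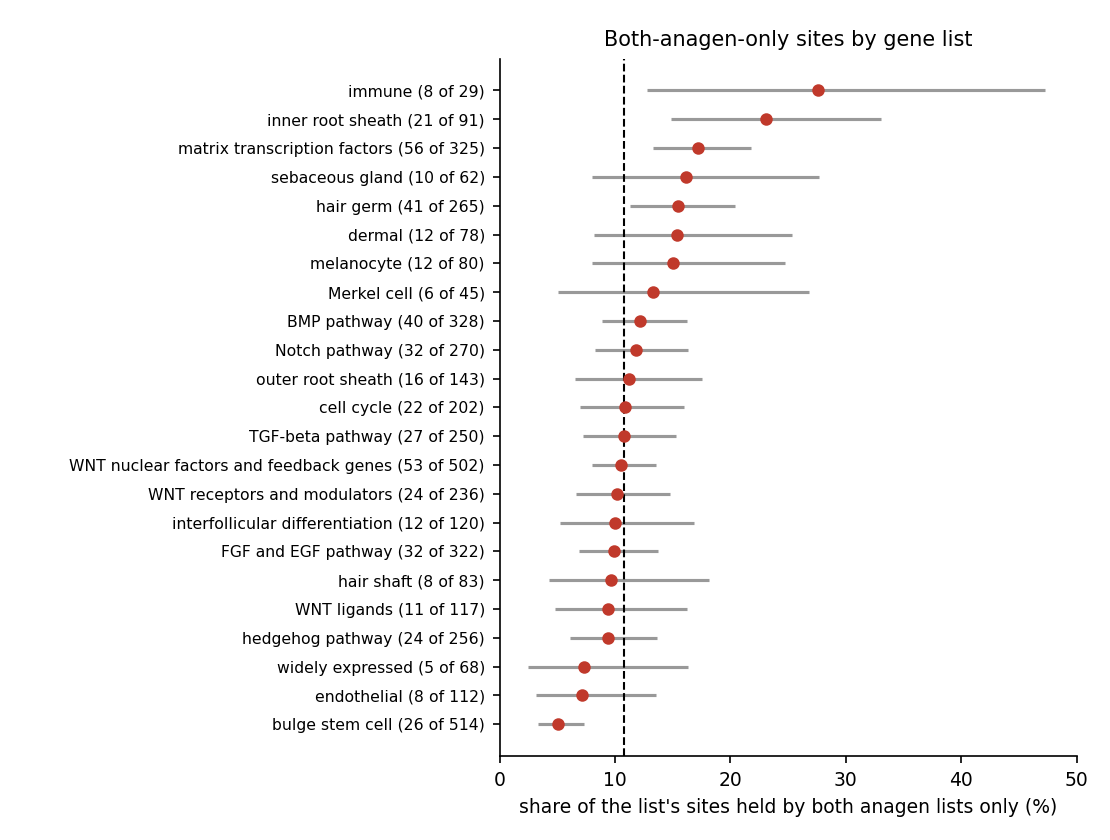
Share of each gene list's sites that are both-anagen-only (%), with exact Clopper-Pearson 95% intervals; numbers in brackets are both-anagen-only sites of all sites of the list, and the dashed line marks 10.8%, the share over all sites assigned to a gene. Inner root sheath and matrix genes lie to the right of the line and bulge stem cell genes to the left.

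Signalling pathways of the follicle had shares from 9.38% to 12.2%, beside 10.8% over all genes. WNT ligands had 11 of 117 sites (9.40%), WNT receptors and modulators 24 of 236 (10.2%) and WNT nuclear factors and feedback genes 53 of 502 (10.6%, 8.01 to 13.6). Of these 53 sites 27 leaned suprabasal and 2 basal, a median difference of 27.8 points against 5.31 over all both-anagen-only sites. Lef1 contributed 6 of the 27. With a −log10 q of at least 10 asked of peaks in every list, the share of this list was 16.3%, beside 10.6% over all genes in that setting. Tle3, a Groucho co-repressor, had 5 of 33, of which 4 leaned suprabasal, with 35 fragments in basal and 138 in suprabasal TACs at the most unequal. Tle4 had 5 of 46 with 3 suprabasal leaning. Znrf3, a ubiquitin ligase that removes Frizzled receptors, had 5 of 29 with 3 suprabasal leaning, and Lgr4 and Apcdd1 had 4 of 22 and 4 of 17 with 2 each. Axin2, a feedback inhibitor induced by WNT, had 2 of 25, and one of them had 47 and 190 fragments. At Lgr5, Sp5, Notum and Rnf43 there was none.

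Among the ligands, Wnt3 had 3 of 9 and all 3 leaned suprabasal, at 41 and 102, 34 and 65, and 22 and 66 fragments. Wnt11 had 3 of 12, and Wnt10a and Wnt10b had none. Of the receptors, Fzd10 had 8 of 23, of which 5 leaned suprabasal and 1 basal. Its site 15.4 kb before the start had 92 fragments in basal and 263 in suprabasal TACs. Ror2, a receptor for WNT5A, had 7 of 47 with 1 suprabasal and 2 basal leaning, and Wls, which carries WNT ligands to the surface, had 4 of 12 with no lean.

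BMP pathway genes had 40 of 328 sites (12.2%, 8.86 to 16.2) at 18 of 25 genes, beside 34.7% of all genes with a site. Of the 40, 13 leaned suprabasal and 4 basal, beside 23.3% and 12.8% over all both-anagen-only sites. Smad6, an inhibitory SMAD, had 5 of 24. The ligand Bmp2 had 4 of 17 with no lean. Bmp4 had 2 of 13, both suprabasal leaning, with 29 and 94 and with 26 and 58 fragments. Chrd, an antagonist, had 2 of 9, both basal leaning, with 114 and 36 and with 69 and 38. TGF-beta pathway genes had 27 of 250 (10.8%), led by Smad3 with 7 of 28, Ltbp1 with 5 of 40 and Tgfbr2 with 4 of 26. Hedgehog pathway genes had 24 of 256 (9.38%), led by the transcription factor Gli2 with 7 of 59. Notch pathway genes had 32 of 270 (11.9%), led by the co-activators Maml3 with 8 of 62 and Maml2 with 5 of 45 and by Rbpj, the DNA-binding partner of Notch, with 5 of 25. Heyl, a Notch target, had 2 of 4, both suprabasal leaning, with 47 and 99 and with 67 and 128 fragments.

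FGF and EGF pathway genes had 32 of 322 sites (9.94%, 6.90 to 13.7). Of the 32, 4 leaned suprabasal and 8 basal, beside 23.3% and 12.8% over all both-anagen-only sites. Of these 8, 5 were at Fgf5. All 11 sites of Fgf5 were absent from both telogen lists, 6 belonged to the basal list only, and the 5 both-anagen-only sites all leaned basal. The site across the start (chr5:98253337-98254871) had 136 fragments in basal and 38 in suprabasal TACs, a difference of -52.9 points. The other 4 lay 29.7 to 47.5 kb after the start, past the end of the gene, with 157 and 25, 131 and 39, 104 and 54, and 155 and 27 fragments. The nearest telogen peak was between 26.8 and 66.9 kb from these 5 sites. Egfr, the EGF receptor, had 6 of 45 with 1 basal leaning, Lrig3 4 of 31 with none and Spry2 4 of 16 with 1 in each direction.

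Cell cycle genes had 22 of 202 (10.9%, 6.95 to 16). By gene, 8 of 27 had one, beside 34.7% of all genes with a site. The 19 without included the mitotic genes Ccnb1, Cdk1, Plk1 and Top2a, of which Plk1 and Top2a had a single site each. Cdk6, a kinase of the G1 phase, had 6 of 25. Its strongest site, 144 kb after the start, had 270 fragments in basal and 138 in suprabasal TACs, and 2 of the 6 leaned basal. E2f3, a transcription factor of the same step, had 4 of 15, of which 3 leaned suprabasal, the most unequal with 29 and 184 fragments. Ccnd2, a cyclin of G1, had 4 of 21. Genes of epidermal differentiation between the follicles had 12 of 120 (10%), and widely expressed genes 5 of 68 (7.35%, 2.43 to 16.3).

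Markers of cell types that the sorts were not meant to hold also had both-anagen-only sites. Immune genes had 8 of 29, 27.6% (12.7 to 47.2), dermal genes 12 of 78 (15.4%, 8.21 to 25.3), melanocyte genes 12 of 80 (15%, 8.0 to 24.7), sebaceous gland genes 10 of 62 (16.1%, 8.02 to 27.7), Merkel cell genes 6 of 45 (13.3%) and endothelial genes 8 of 112 (7.14%). Single genes held many of them: Dcn, a proteoglycan of fibroblasts, had 5 of the 12 dermal sites, and Dct, an enzyme of pigment synthesis, 7 of the 12 melanocyte sites. Without the gene with most of them, the melanocyte share was 7.46%, the dermal 10.3%, the sebaceous 11.6% and the immune 22.2%. Fabp5, the leading gene of the sebaceous list, had 5 of 19.

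By gene, 34.7% of all genes with a site had a both-anagen-only one. Of the 12 dermal markers 5 had one: Dcn, Twist2 with 3 of 12, Pdgfra with 2 of 10, Vim with 1 of 2 and Corin with 1 of 6. The other 7, Col1a1, Col1a2, Col3a1 and Lum among them, had none. Of the 10 melanocyte markers 4 had one: Dct, Mitf with 2 of 39, Kit with 2 of 8 and Tyrp1 with 1 of 5; Pmel, Mlana and Sox10 were among the 6 without. Of the 10 endothelial markers 5 had one: Flt1 with 2 of 15, Cdh5 and Vwf with 2 of 12 each, Erg with 1 of 18 and Kdr with 1 of 7; Pecam1 and Tie1 were among the 5 without. Immune genes held 8 sites in each telogen list and 19 in each anagen list. Ptprc, the pan-leukocyte antigen CD45, had 4 of 11, and Cd3e, Cd74, Csf1r and Lyz2 had 1 each. At Csf1r the site lay on the gene end with 49 fragments in basal and 28 in suprabasal TACs, and at Lyz2 the only site had 24 and 39. The part of other cell types in the both-anagen-only set was not tested; the pooled lists do not separate a few fully open cells from many partly open ones.

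Gene starts in these sites were few. Of 21045 RefSeq promoter windows, which reach from 250 bases before to 50 after a start, 324 windows of 308 genes (1.54%) overlapped a both-anagen-only site, while 54.9% overlapped a site of all 4 lists. Only 306 both-anagen-only sites (2.47%) held such a window. At 42 of the 308 genes the site leaned suprabasal and at 20 it leaned basal. Over all both-anagen-only sites these shares were 23.3% and 12.8%, and over all ranked sites 12.5% and 13.5%. Windows on chromosome 18 were not used here.

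Their sequence was poorer in CpG than that of commonly open promoters. Over the 250 bases before the start, the median GC content was 58.8%, against 61.2% for windows in sites of all 4 lists and 55.6% for all windows, and the median number of CpG was 9.5, 17 and 10. The TCF/LEF letters CTTTGA, seen in Krt28 above, stood in 51 of 324 windows (15.7%, 12.2 to 20.1), against 9.44% in sites of all 4 lists and 12.8% of all windows. KLF/SP letters (GGGCGG) stood in 45.4%, against 63.6% and 43.1%, and ETS letters (CCGGAA) in 11.4%, against 23.5% and 15.1%. E-box letters (CAGCTG) stood in 16%, against 11.2% and 12.2%. The GATA letters seen in Krt71 stood in 6.17%, against 4.98% and 8.84%, and the HOX letters seen in Tgm3 in 6.17%, against 5.44% and 8.71%. MSX/DLX letters stood in 4.32%, against 3.94% and 6.29%, and AP-1 letters in 5.56%, against 4.10% and 6.17%. Windows in no site, with a median GC content of 47.2%, had the TCF/LEF letters in 17.5%, so base composition moves with this share and its part was not tested.

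Of the 340 genes on the lists 228 could be placed by a promoter window. Of these, 9 had one in a both-anagen-only site, beside 308 of 17274 over all genes with a window. The 9 were Krt28, Krt71, Padi3, Tgm3, Krt14, Fgf5, Dhh, Kit and Pparg. The first 4 are inner root sheath genes. Krt35, whose both-anagen-only site lies on a gene end, Hoxc13, Shh, Bmp2, Ccnd2, Dcn and Myc are among the genes not counted here. Kit, the receptor for stem cell factor, had 42 fragments in basal and 136 in suprabasal TACs at its start. At Pparg, a regulator of lipid synthesis, the start site had 43 and 24, and the gene had no telogen site. Dhh, a hedgehog ligand, had 23 and 39.

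The 5 starts with the highest rank, taking the lower of the basal and suprabasal percentile, were Pla2g2e, Padi3, Adig, Dennd2d and Bdnf. At Pla2g2e, a secreted phospholipase known from hair follicles, 227 and 265 fragments placed the site (chr4:138877574-138880041) at percentiles 93.4 and 95.6. Adig, an adipocyte protein, had 116 and 114, Dennd2d 97 and 125, and Bdnf, a neurotrophin, 93 and 241. Bdnf has 6 other windows in the table, of which 2 lay in a site.

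The 10 both-anagen-only sites with the highest rank, taking the lower of the basal and suprabasal percentile, lay at or near Rbp2, Sfi1, Ccne1, Pla2g2e, Shank2, Robo1, Mtss1, Cyria and Ror2, and once with no gene within 100 kb. That last one (chr15:62420646-62422227) had 309 fragments in basal and 292 in suprabasal TACs, and the nearest telogen peak was 30.7 kb away. The site near Ccne1, cyclin E1, had 297 and 238. Sfi1 had 726 and 254 fragments but the lowest fold enrichment of the 10 in both lists, 4.12 and 2.48, so its surroundings were high as well. The sites with the largest basal lean were near Tmem170b (221 and 21 fragments), in Grin2b (191 and 19), near Ccdc80 (172 and 18), and in Tln2, Ankrd61, Mpp7, Atp8a1, Ptprd and Ccdc170 or near Usp38. After Krt35, the largest suprabasal leans were near Usp12 (15 and 186), at the end of Bmp8a, a BMP ligand (20 and 210), near Hecw2 (26 and 244), in Akap6, Papss1 and Galnt16, and near Slc16a1, Braf and Gm29735. The 5 longest ran from 2874 to 3024 bp and lay in Spon1 and Chd7, near Cdk5rap3, and in 2 places with no gene within 100 kb.

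The median distance from one both-anagen-only site to the nearest other was 29.1 kb, and 23.5% had another within 10 kb. The fullest 1-Mb window, chr3:121000000-121999999, held 29 among 100 sites, at Slc44a3 (7), Arhgap29 (6), Abcd3 (5), Tlcd4 (4), Cnn3 (3) and 3 other genes. The window chr5:136000000-136999999 held 26 among 119, of which 13 belonged to Cux1 and 6 to Myl10. In chr5:74000000-74999999 there were 24 among 93, at Scfd2 (8), Lnx1 (6), Rasl11b (6) and Usp46 (3).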

How the data were processed

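ATAC-seq of 4 sorted populations, 2 samples each, was analysed from 4 deposited peak lists, 1 per population. The submitters' processing notes name Bowtie2 2.2.9, Picard, MACS2 and mm10. MACS 2.1.1.20160309 was run on pooled paired-end fragments without a control library, at a q-value cutoff of 0.05 and with a local background of 10 kb, per the file headers. The sources used here do not say whether read ends were moved for the transposase cut, which limits the precision of peak edges. For each peak the authors give the summit coverage (a pileup signal, not scaled for depth), the fold enrichment (a ratio to the local background) and, under 2 damaged column names, its −log10 p-value and −log10 q-value, here identified from the fixed column order of the caller. All deposited columns were of these samples.

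Peaks were merged into sites at 1 bp of overlap with Python 3.11.15, numpy 2.4.6, pandas 2.3.3 and scipy 1.17.1; figures used matplotlib 3.10.9. The classing was tested on simulated peak lists. Genes are 21644 protein-coding spans of the RefSeq GRCm38.p6 table; a site went to the nearest span within 100 kb (ties to the shortest). Promoter windows of 17274 genes matched by symbol. The 17 motifs were searched in the 250 bases before each start, not in the whole 300-base window as first planned. Intervals have a confidence level of 95% (Wilson for sites, Clopper-Pearson for gene lists). Named genes are the 20 with most members, the 10 of highest share among genes with 8 or more sites, list genes with 4 or more members or a start in a member, and extremes of rank, length and 1-Mb windows; further list genes with fewer members were named after their values were seen. The members, the 23 gene lists (370 entries, 369 placed) and the rules were chosen with earlier results of these data known. Alternatives covered the peak thresholds, depth, overlap, gene distance and single genes or windows.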

Additional observations from a re-analysis of the deposited data

Results flagged for a closer look

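Peaks on the Y chromosome were left out of the sites above and were seen in every list. The basal TAC list held 12 and the suprabasal TAC list 13, above the 9 of the bulge list and the 7 of the hair germ list. The labels give each sample's sex as mixed, and the anagen libraries also held more fragments; the part of either in these counts was not tested. On the mitochondrial chromosome, also left out, the bulge list held 4 peaks, the hair germ list 5 and each anagen list 3.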

How the results depend on the processing

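No paired analysis was possible because each list pools both samples of its population, and leaving out a replicate was not possible for the same reason. Alternatives on fold enrichment and on the leading gene of a list were chosen after seeing the data. The count of 12377 sites fell to 6386 with a −log10 q of at least 10 in the anagen lists only, to 5062 with depth-scaled absence and to 7070 with equal numbers of peaks (56536 per list). In these 3 settings, in that order, the share near a gene end was 5.47%, 5.65% and 5.45%, inside a gene 55.6%, 56.4% and 55.3%, at matrix genes 11.2%, 8.92% and 10.9%, and at bulge stem cell genes 2.33%, 1.95% and 2.1%, where the share over all sites with a gene was 6.63%, 4.43% and 7.35%. Near a gene end it was 7.23% with the q limit in every list, 5.74% with a fold of at least 3 and 9.9% within 2 kb; inside a gene it was 55.9% with that fold. Suprabasal leaning sites were 25.4% with the anagen q limit, 32.9% with depth-scaled absence and 25.8% with the fold limit. Basal leaning ones were 13.7% with the q limit in every list, 12.1% with the anagen limit, 5.37% with depth-scaled absence, 13.6% with equal numbers, 11.4% with the fold limit and 15.2% when ranked by fold. With no telogen peak within 1 kb the bulge stem cell share was 3.31%. The inner root sheath share ran from 17.6% to 23.5%; it and the matrix list stayed above, and the bulge list below, the share over all genes in the same setting, in 9 of 9 settings each. WNT nuclear factors and feedback genes stayed on the same side of it in 6 of 9, from 5.78% to 16.3%. The causes of these shifts were not tested.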
